A study of Mus musculus with 6 samples.

Results

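The genes described here are 7 collagen chains and 3 other genes of mesenchymal stroma, measured by RNA-seq in murine ESCs after knockdown of SMC subunits. The collagen genes are Col1a1, Col1a2, Col3a1, Col5a1, Col5a2, Col6a1 and Col6a2, and the others are Thy1, Lum and Postn. They were named as a list, and the deposited row of each was found by its RefSeq accession, taking the row with most counts where a gene has several. Each of the 10 has 1 deposited row, among 21125 genes of the deposited rows, a number that includes rows without a gene name. Of these 10 genes, 9 had at least 10 counts in at least 2 libraries and were tested, and Lum did not. Each of these 9 had at least 50 counts in every library.

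There were 6 libraries of V6.5 (C57BL/6-129) murine ESCs, each infected with a lentiviral shRNA and selected in puromycin. The sample labels give 0.5 µg/ml and then 1 µg/ml for 48 hours each, while the study's supplement gives a single, higher concentration. The control shRNA was directed at GFP (1 library). The others were directed at SMC1, a cohesin subunit (1 library), at CAPH2, a condensin II subunit (2 libraries), or at SMC2 (2 libraries). SMC2 is a subunit that both condensins share. The 2 libraries of a target are different hairpins, called #1 and #2 here, and each is a bulk RNA preparation, so fewer cells of a type and less RNA per cell cannot be told apart. All of the cells had been maintained on irradiated mouse embryonic fibroblasts and spent a single passage on gelatin without them before RNA was collected, and the study's supplement also describes a short plating step before infection that removes fibroblasts. Fibroblasts transcribe most of the genes described here, and for that reason the levels of other fibroblast genes are given beside the results. Depth was 18823245 to 23324537 reads per library. In the SMC1 library Smc1a stood at 39.9% of its GFP level, Ncaph2 stood at 21.04% and 34.8% with the CAPH2 hairpins, and Smc2 stood at 70.7% and 71.9% with the SMC2 hairpins.

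Collagens are built from 3 polypeptide chains wound into a triple helix. Col1a1 and Col1a2 encode the chains of type I collagen, the main fibril of skin, tendon and bone, Col3a1 encodes the single chain of type III, and Col5a1 and Col5a2 encode chains of type V, which sits inside type I fibrils and limits their width. Col6a1 and Col6a2 encode chains of type VI collagen, which forms beaded filaments near cell surfaces and is not a fibrillar collagen. Lum encodes lumican, a proteoglycan that binds fibrils, Postn encodes periostin, a matrix protein of collagen-rich tissue, and Thy1 encodes a GPI-anchored surface protein that marks fibroblasts, neurons and thymocytes. Undifferentiated ESCs make mostly basement membrane collagen, and type I collagen is typical of mesenchymal cells.

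The sequences just upstream of 4 start sites are shown because these genes include both chains of type I collagen and the pair of neighbouring genes, Col3a1 and Col5a2, that differed most in their change. Each is the 150 bases before the annotated start of the deposited RefSeq row (mm9), on the strand of the gene, and capitals mark CCAAT or its reverse complement ATTGG, and TATAA or its reverse complement TTATA. The Col1a1 window is chr11:94797434-94797583 on the plus strand, that of Col1a2 is chr6:4455547-4455696 on the plus strand, that of Col3a1 is chr1:45368233-45368382 on the plus strand and that of Col5a2 is chr1:45560128-45560277 on the minus strand.
Col1a1: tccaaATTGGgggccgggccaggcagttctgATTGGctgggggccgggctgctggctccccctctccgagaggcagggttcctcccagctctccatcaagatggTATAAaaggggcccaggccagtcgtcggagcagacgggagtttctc
Col1a2: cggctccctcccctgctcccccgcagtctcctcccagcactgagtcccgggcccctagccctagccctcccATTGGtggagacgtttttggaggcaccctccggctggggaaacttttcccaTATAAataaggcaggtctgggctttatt
Col3a1: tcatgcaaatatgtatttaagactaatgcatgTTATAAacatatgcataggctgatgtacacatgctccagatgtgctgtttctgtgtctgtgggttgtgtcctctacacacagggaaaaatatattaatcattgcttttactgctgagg
Col5a2: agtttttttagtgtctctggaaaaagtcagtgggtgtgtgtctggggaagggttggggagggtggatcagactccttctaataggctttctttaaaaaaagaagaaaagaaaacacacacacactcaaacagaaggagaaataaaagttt

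The Col1a1 window held 2 matches to CCAAT, which began 145 and 119 bases before the start, and 1 match to TATAA, which began 46 bases before it. The Col1a2 window held 1 match to CCAAT at 79 bases and 1 to TATAA at 28 bases. The Col3a1 window held no CCAAT and 2 TATAA matches that overlap each other, at 118 and 117 bases, and the Col5a2 window held neither motif. Of the remaining genes, Thy1 had a CCAAT match at 41 bases, Postn had a TATAA match at 44 bases, and Col5a1, Col6a1, Col6a2 and Lum had neither. Over 23017 start sites of the deposited rows, 25.8% of windows of the same length held CCAAT, 12.9% held TATAA and 3.61% held both, on either strand. Both chains of type I collagen belong to that last group, and the matches are a description of the letters in these windows only.

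Col1a1 (NM_007742, chr11:94797584-94813170, plus strand) had the highest level of the 10 genes in the GFP library. RPKM divides the count by exon length and by the depth of the library, so levels of different genes can be compared. On this scale Col1a1 was at 20.8 in GFP, 39.4 with SMC1, 36.1 with CAPH2 #1, 22.8 with CAPH2 #2, 25.3 with SMC2 #1 and 22.5 with SMC2 #2. The counts behind these levels were 2103, 3560, 3957, 2012, 2680 and 2162. The GFP library was the lowest and the SMC1 library the highest, with CAPH2 #1 close to it and the other 3 hairpin libraries near the control. The level with SMC1 was 1.89-fold that of GFP (95% exact binomial interval 1.79 to 2.00), and all such intervals given here cover counting error only. CAPH2 #1 was at 1.74-fold (1.65 to 1.83) and CAPH2 #2 at 1.09-fold (1.03 to 1.16). Only CAPH2 #2 and SMC2 #2 of the neighbours in this order did not differ beyond counting error, with a ratio of 1.01 (0.949 to 1.07).

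Col1a2 (NM_007743, chr6:4455697-4491543, plus strand), the partner chain of Col1a1, stood at 12.3 RPKM in GFP, 33.2 with SMC1, 22.8 and 16.7 with CAPH2 #1 and #2, and 18.1 and 16.8 with SMC2 #1 and #2. All 5 knockdown libraries lay above the GFP library. The SMC1 level was 2.70-fold that of GFP (2.54 to 2.88), and the hairpins ranged from 1.35-fold with CAPH2 #2 (1.26 to 1.46) to 1.85-fold with CAPH2 #1 (1.74 to 1.98). SMC2 #2 and CAPH2 #2 did not differ beyond counting error.

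The Col1a2 to Col1a1 ratio of RPKM within a library, which no scaling between libraries can alter, was 0.592 in the GFP library (0.552 to 0.634) and 0.843 with SMC1 (0.804 to 0.885). It was 0.631 with CAPH2 #1, 0.732 with CAPH2 #2, 0.713 with SMC2 #1 and 0.743 with SMC2 #2. The intervals of the SMC1 and GFP libraries do not overlap, and each of CAPH2 #2, SMC2 #1 and SMC2 #2 also has an interval above that of GFP. CAPH2 #1 and CAPH2 #2 have intervals that are apart as well, so libraries of 1 target differed by more than counting error, and with single GFP and SMC1 libraries the change of this ratio has no test.

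**Figure D1:**
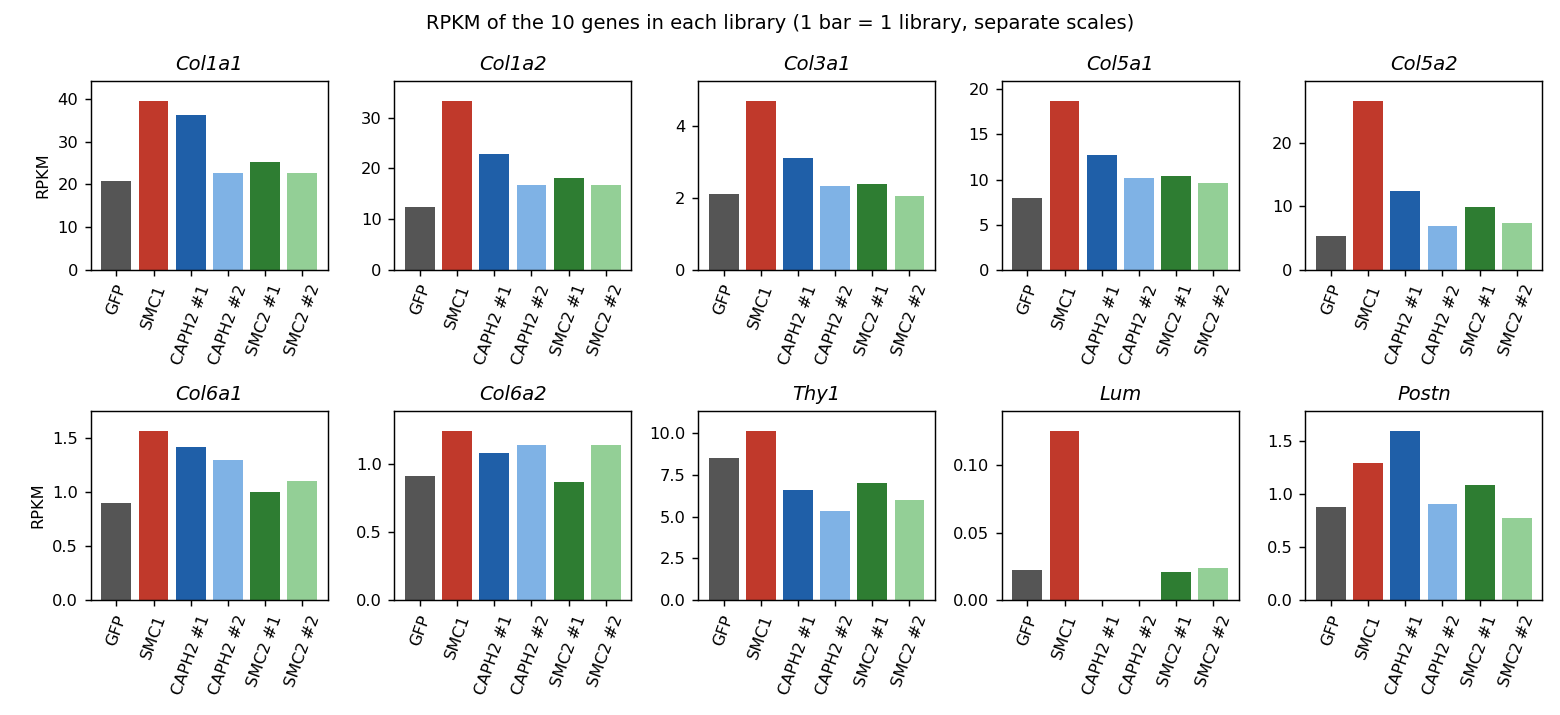
RPKM of each of the 10 genes (linear axis from 0, its own scale in each panel) in the 6 libraries, 1 bar per library. Col5a2 stands out in the SMC1 library at 26.5 against 5.36 in the GFP library, Thy1 is lower with the 4 CAPH2 and SMC2 hairpins than with GFP on this scale (3 of these 4 are higher with ERCC scaling), and Lum is near 0 throughout.

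Col5a2 (NM_007737, chr1:45431176-45560127, minus strand), a chain of type V collagen, had the widest range of the 9 tested genes. Its RPKM was 5.36 in GFP, 26.5 with SMC1, 12.3 with CAPH2 #1, 6.89 with CAPH2 #2, 9.87 with SMC2 #1 and 7.42 with SMC2 #2, from 763, 3376, 1904, 858, 1471 and 1002 counts. The SMC1 library was far above all others, the GFP library was the lowest, and the first hairpin of each condensin target was above the second. With SMC1 the level was 4.95-fold that of GFP (4.58 to 5.36). It was 2.303-fold with CAPH2 #1 (2.12 to 2.51), 1.29-fold with CAPH2 #2 (1.16 to 1.42), 1.84-fold with SMC2 #1 (1.69 to 2.01) and 1.38-fold with SMC2 #2 (1.26 to 1.52). SMC2 #2 and CAPH2 #2 were the neighbours that did not differ beyond counting error.

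Col5a1 (NM_015734, chr2:27741945-27895030, plus strand), which pairs with Col5a2 in type V collagen, was at 7.94 RPKM in the GFP control, 18.7 with SMC1, 12.7 and 10.2 with the CAPH2 hairpins and 10.4 and 9.65 with the SMC2 hairpins. Again GFP was lowest and SMC1 highest, but the SMC1 level was 2.35-fold that of GFP (2.21 to 2.51), less than that of Col5a2. The Col5a2 to Col5a1 ratio of RPKM was 0.675 in the GFP library (0.618 to 0.738) and 1.42 with SMC1 (1.35 to 1.49), so that Col5a2 passed from the lower to the higher of the pair. The ratio was 0.972 with CAPH2 #1 (0.915 to 1.03) and 0.952 with SMC2 #1 (0.889 to 1.02). With CAPH2 #2 it was 0.675 (0.621 to 0.734), as in GFP, and with SMC2 #2 it was 0.769 (0.710 to 0.832), with an interval that overlaps that of GFP. Here too the CAPH2 hairpins differed beyond counting error, and the difference between the single SMC1 and GFP libraries has no test.

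Col3a1 (NM_009930, chr1:45368383-45406550, plus strand) lies 24.6 kb from Col5a2 with their ends facing each other and no gene of the deposited rows between them. Its RPKM was 2.11 in GFP, 4.69 with SMC1, 3.11 and 2.33 with CAPH2 #1 and #2, and 2.38 and 2.05 with SMC2 #1 and #2. SMC1 and CAPH2 #1 were above the rest, and the other 4 libraries did not differ from their neighbours in the order beyond counting error. The SMC1 level was 2.22-fold that of GFP (1.91 to 2.59). The Col5a2 to Col3a1 ratio, computed after the values were seen, was 2.54 in GFP (2.20 to 2.94) and 5.66 with SMC1 (5.15 to 6.22). The Col3a1 to Col1a1 ratio, also added, was 0.102 in GFP (0.0888 to 0.116) and 0.119 with SMC1 (0.108 to 0.131), intervals that overlap.

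**Figure D2:**
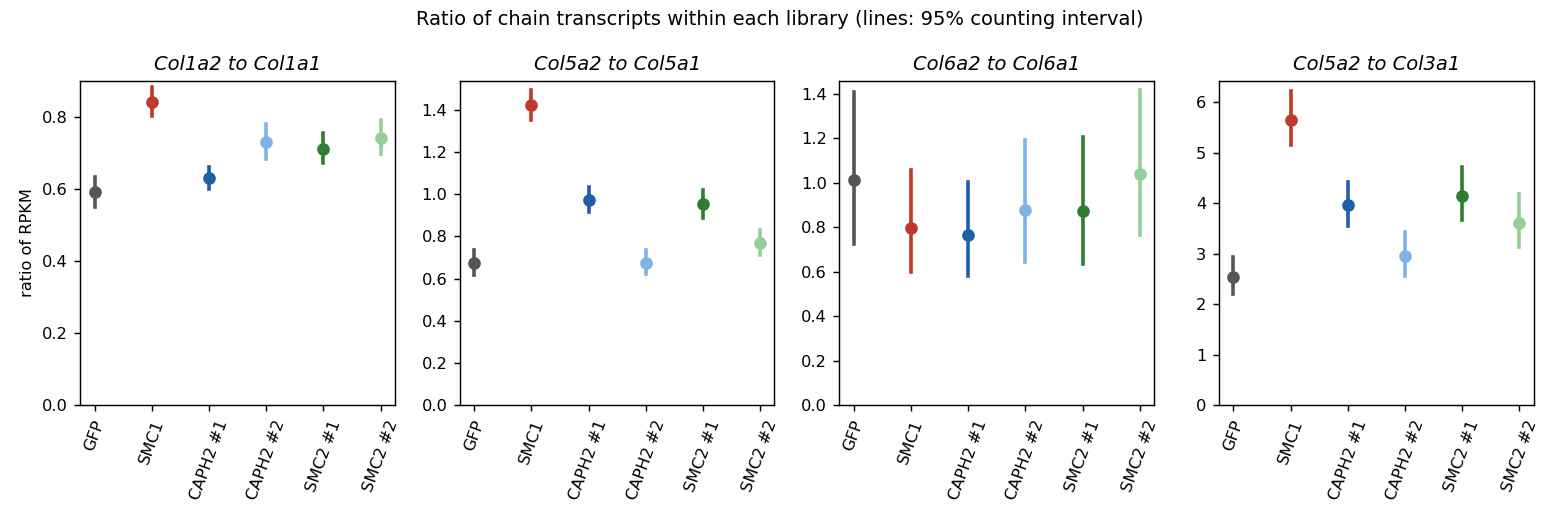
Ratio of RPKM between collagen chains (linear axis from 0, its own scale in each panel) within each of the 6 libraries, with lines for exact 95% counting intervals. The Col5a2 to Col5a1 ratio is 1.42 with SMC1 and 0.675 with GFP, and the Col6a2 to Col6a1 intervals overlap in all libraries.

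The 5 fibrillar chains together, Col1a1, Col1a2, Col3a1, Col5a1 and Col5a2, summed to 48.5 RPKM in the GFP control, 122.6 with SMC1, 87.05 with CAPH2 #1, 58.8 with CAPH2 #2, 66.0 with SMC2 #1 and 58.4 with SMC2 #2. The make-up of this sum moved with SMC1 too. Col1a1 was 42.9% of it in the GFP library and 32.2% with SMC1, while Col5a2 went from 11.05% to 21.7%. The share of Col3a1 stayed between 3.51% and 4.36% in all 6 libraries.

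Transcripts of type VI collagen were at lower levels. Col6a1 (NM_009933, chr10:76171537-76188789, minus strand) stood at 0.900 RPKM in GFP, 1.56 with SMC1, 1.41 and 1.30 with the CAPH2 hairpins, and 0.994 and 1.10 with the SMC2 hairpins, from 77 to 131 counts. Col6a2 (NM_146007, chr10:76058501-76086149, minus strand), which lies 85.4 kb from Col6a1 on the same strand, had 0.910 in GFP, 1.24 with SMC1, 1.08 and 1.14 with CAPH2, and 0.869 and 1.14 with SMC2, from 73 to 94 counts. The SMC1 library was the highest for both, but at this depth no neighbours in either order differed beyond counting error. Col6a1 was 1.73-fold its GFP level with SMC1 (1.29 to 2.34), and Col6a2 was 1.36-fold (0.990 to 1.89), an interval that includes 1. The Col6a2 to Col6a1 ratio was 1.01 in GFP (0.724 to 1.41) and 0.797 with SMC1 (0.599 to 1.06). The third main chain of type VI collagen, Col6a3, was looked for by name and no row was found for it.

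Thy1 (NM_009382, chr9:43851467-43856662, plus strand) was the one tested gene of the list that stood lower with both condensin targets than with GFP. Its RPKM was 8.52 in GFP, 10.1 with SMC1, 6.60 with CAPH2 #1, 5.36 with CAPH2 #2, 7.04 with SMC2 #1 and 6.01 with SMC2 #2, from 175 to 337 counts. SMC1 was above GFP, and all 4 hairpin libraries of CAPH2 and SMC2 were below it, where neighbours in the order did not differ from each other beyond counting error. The ratio to GFP was 1.19 with SMC1 (1.01 to 1.39), 0.775 with CAPH2 #1 (0.656 to 0.914), 0.629 with CAPH2 #2 (0.520 to 0.759), 0.826 with SMC2 #1 (0.700 to 0.974) and 0.706 with SMC2 #2 (0.591 to 0.843). These ratios depend on the scaling, and with the ERCC scaling described below the Thy1 levels of CAPH2 #1 and both SMC2 hairpins were above GFP. Thy1 passed none of the edgeR tests below with all libraries. Its lowest adjusted p in them, for CAPH2, was 0.0986, or 0.0570 when rows with low counts were kept. Without CAPH2 #1 its log2 change for CAPH2 was -0.66.

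Postn (NM_015784, chr3:54165047-54194954, plus strand) was low, with an RPKM of 0.875 in GFP, 1.29 with SMC1, 1.59 and 0.900 with the CAPH2 hairpins and 1.09 and 0.769 with the SMC2 hairpins, from 50 to 118 counts. CAPH2 #1 rather than SMC1 was highest, at 1.81-fold the GFP level (1.32 to 2.52), and no neighbours in the order differed beyond counting error. Lum (NM_008524, chr10:97028135-97035337, plus strand) had 1 count in the GFP library, 5 with SMC1, 0 with both CAPH2 hairpins and 1 with each SMC2 hairpin. At such counts no difference was detectable for Lum, and its ratio of SMC1 to GFP, 5.597, has an interval from 0.626 to 264.7. Its neighbours on chromosome 10 are genes of the same proteoglycan family. Of these, Dcn, 47.3 kb away, had 1 to 19 counts per library, and Kera, 34.5 kb away on the other side, had 0 in all 6.

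The question for the series was how depletion of cohesin or condensin alters the transcripts of ESCs. With SMC1, 4 of the 9 tested genes were at least 2-fold higher than in the GFP library, Col1a2, Col3a1, Col5a1 and Col5a2, and 0 were 2-fold lower. Of all 18463 rows tested, 12.5% were 2-fold higher, 8.68% were 2-fold lower and 21.2% passed in either direction. The log2 change of RPKM was above 0 for 9 of 9 genes and for 52% of all rows. Its median was 0.92 for the 9 genes, from 0.25 for Thy1 to 2.31 for Col5a2, and 0.031 for all rows. With a pseudocount of 1 RPKM 3 genes were 2-fold higher, as Col3a1 was then at 0.87 on the log2 scale. As there is 1 library of each, these fold changes have no replicate check.

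Added to the fold changes was a test that borrows the spread between hairpins. In a fit of all 6 libraries with residual degrees of freedom from the 2 pairs of hairpins, using edgeR's quasi-likelihood test and Benjamini-Hochberg adjustment, the single GFP and SMC1 libraries are assumed to vary like the CAPH2 and SMC2 pairs, and the p-values measure the spread between hairpins. With SMC1, 6 of 9 genes passed as higher and 0 as lower, against 25.3% and 23.2% of all rows. On the log2 scale of this fit Col5a2 rose by 2.29 (SE 0.32, adjusted p = 0.000413) and Col1a2 by 1.42 (SE 0.18, adjusted p = 0.000224). Col5a1 rose by 1.22 (SE 0.14, adjusted p = 0.000162) and Col3a1 by 1.14 (SE 0.21, adjusted p = 0.00202). Col1a1 rose by 0.91 (adjusted p = 0.0113) and Col6a1 by 0.78 (adjusted p = 0.0273). These 2 calls were lost with DESeq2 (adjusted p = 0.127 and 0.224) and with ERCC scaling (adjusted p = 0.0559 and 0.0763). With ERCC scaling their log2 changes were larger, at 1.79 and 1.65. The spread between hairpins in that fit was also larger, with a common coefficient of variation of 0.249 against 0.067. Postn at 0.55, Col6a2 at 0.43 and Thy1 at 0.23 did not pass (adjusted p from 0.242 to 0.351).

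**Figure D3:**
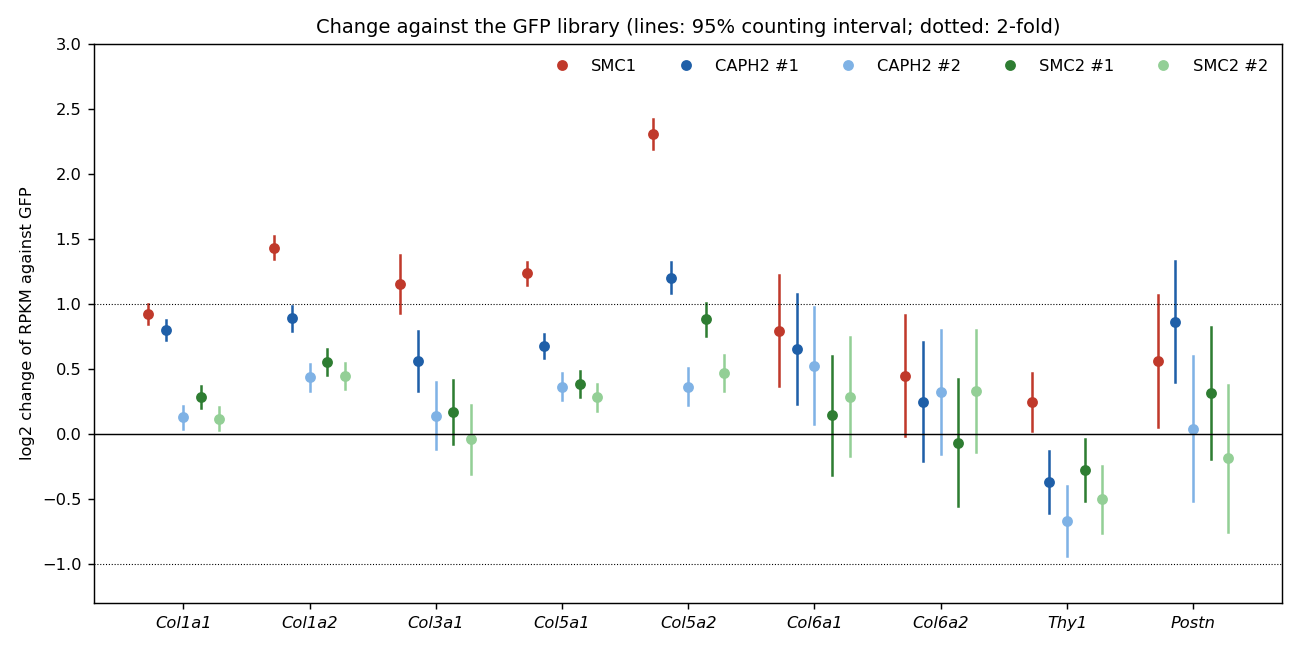
Log2 change of RPKM against the GFP library for the 9 tested genes, with 1 point for SMC1 and for each CAPH2 and SMC2 hairpin and exact 95% counting intervals. Dotted lines mark a 2-fold change. SMC1 is the highest point for 8 of the 9 genes, and the Thy1 points of CAPH2 and SMC2 lie below 0 on this scale (all but CAPH2 #2 lie above 0 with ERCC scaling).

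For CAPH2, whose hairpins were averaged on the RPKM scale, 0 of 9 genes were 2-fold higher and 0 were 2-fold lower, where 2.37% and 0.84% of all rows were, or 3.21% in either direction. The log2 change was above 0 for 8 of 9 genes, all but Thy1, and for 50.7% of all rows, with medians of 0.51 and 0.0059. In the 6-library edgeR fit 2 of 9 genes passed as higher and 0 as lower, against 4.89% and 3.22% of all rows. These were Col1a2, at 0.69 on the log2 scale (SE 0.16, adjusted p = 0.0336), and Col5a1, at 0.54 (SE 0.13, adjusted p = 0.0365). With DESeq2 Col1a2 no longer passed (adjusted p = 0.118) while Col5a1 did (0.0146), and with ERCC scaling neither passed (0.974). Col5a2 had a larger log2 change, 0.85, but did not pass (SE 0.29, adjusted p = 0.0913). Col5a2 passed in the edgeR fit when rows with low counts were kept (adjusted p = 0.0151), where 11.5% of all rows were called. Its log2 change in this fit was 0.37 without CAPH2 #1 and 1.19 without CAPH2 #2. Without CAPH2 #2 the log2 change was 0.78 for Col1a1, 0.54 for Col3a1 and 0.84 for Postn. Without CAPH2 #1 these values were 0.14, 0.15 and 0.049. Fits that leave out a CAPH2 hairpin take their spread from the SMC2 pair alone. More of all rows passed in them than in the fit of all 6 libraries, so gained calls cannot be credited to the hairpin.

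The hairpins of one target were not alike for these genes. CAPH2 #1 was above CAPH2 #2 for 8 of 9 genes, where it was for 51.5% of all rows, and SMC2 #1 was above SMC2 #2 for 7 of 9, against 47.4%. Both held for 7 of 9 genes and for 26.9% of rows, with Col6a1 and Col6a2 the exceptions. The SMC2 hairpins did not differ beyond counting error for Col3a1 (0.97 to 1.38), Thy1 (0.97 to 1.41) and Postn (0.98 to 2.06). Between the CAPH2 hairpins Col5a2 differed 1.79-fold (1.65 to 1.94), Postn 1.76-fold (1.27 to 2.48) and Col1a1 1.59-fold (1.50 to 1.68). The log2 change of Col5a2 was accordingly 0.78 ± 0.59 (SD, n = 2 hairpins) for CAPH2, that of Col1a1 was 0.46 ± 0.47 and that of Postn 0.45 ± 0.58. Between the SMC2 hairpins the widest gap past counting error was that of Col5a2, at 1.33-fold (1.23 to 1.44). The level left of Ncaph2 also differed between its hairpins, while that of Smc2 was close, and its part in these differences was not tested.

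For SMC2, 0 of 9 genes were 2-fold higher and 0 were 2-fold lower than in GFP, where 1.73% and 0.715% of all rows were, or 2.45% in either direction. The log2 change was above 0 for 8 of 9 genes, again all but Thy1, and for 49% of all rows, with medians of 0.20 and -0.0077. In the 6-library edgeR fit 0 of 9 genes passed, against 4.57% of rows higher and 2.58% lower. An unadjusted p under 0.05 was found for 3 of the 9 genes and for 4933 of all 18463 rows. The nearest was Col1a2, at 0.52 on the log2 scale (SE 0.16, adjusted p = 0.0758). When rows with low counts were kept, Col1a2 (adjusted p = 0.0191) and Col5a2 (0.0435) passed in the edgeR fit, where 10.1% of all rows were called. Without CAPH2 #1 the log2 change was 0.52 for Col1a2, 0.35 for Col5a1 and 0.71 for Col5a2. Without CAPH2 #2 these values were 0.50, 0.33 and 0.69. Neither fit changes the SMC2 or GFP libraries, but both take their spread from the SMC2 pair alone. More of all rows passed in them than in the fit of all 6 libraries, so calls gained there are not particular to these genes. DESeq2 passed 0 of the genes for which it gave an adjusted p. Comparisons of SMC1, CAPH2 and SMC2 with GFP share the single GFP library and are not independent of each other. The GFP library was the lowest of the 6 for 5 of 9 genes, Col1a1, Col1a2, Col5a1, Col5a2 and Col6a1, and for 28.3% of all rows. The SMC1 library was the highest for 8 of 9, all but Postn, and for 38% of all rows.

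SMC2 and CAPH2 were compared directly in a fit of their 4 libraries, which does not use GFP. Of the 9 genes 0 passed with edgeR (adjusted p = 0.9995 for each), 0 had an unadjusted p under 0.05 and 0 passed with DESeq2, and 0.00548% of 18245 rows did, which is 1 row, with 565 rows at an unadjusted p under 0.05. The log2 differences of SMC2 from CAPH2 ran from -0.42 for Postn (SE 0.29) to 0.13 for Thy1 (SE 0.15). Without CAPH2 #2, which leaves 1 CAPH2 library that is assumed to vary like the SMC2 pair, 4 genes passed as lower with SMC2, Col1a1, Col1a2, Col5a1 and Col5a2, with adjusted p from 1.61e-07 to 0.0341.

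**Figure D4:**
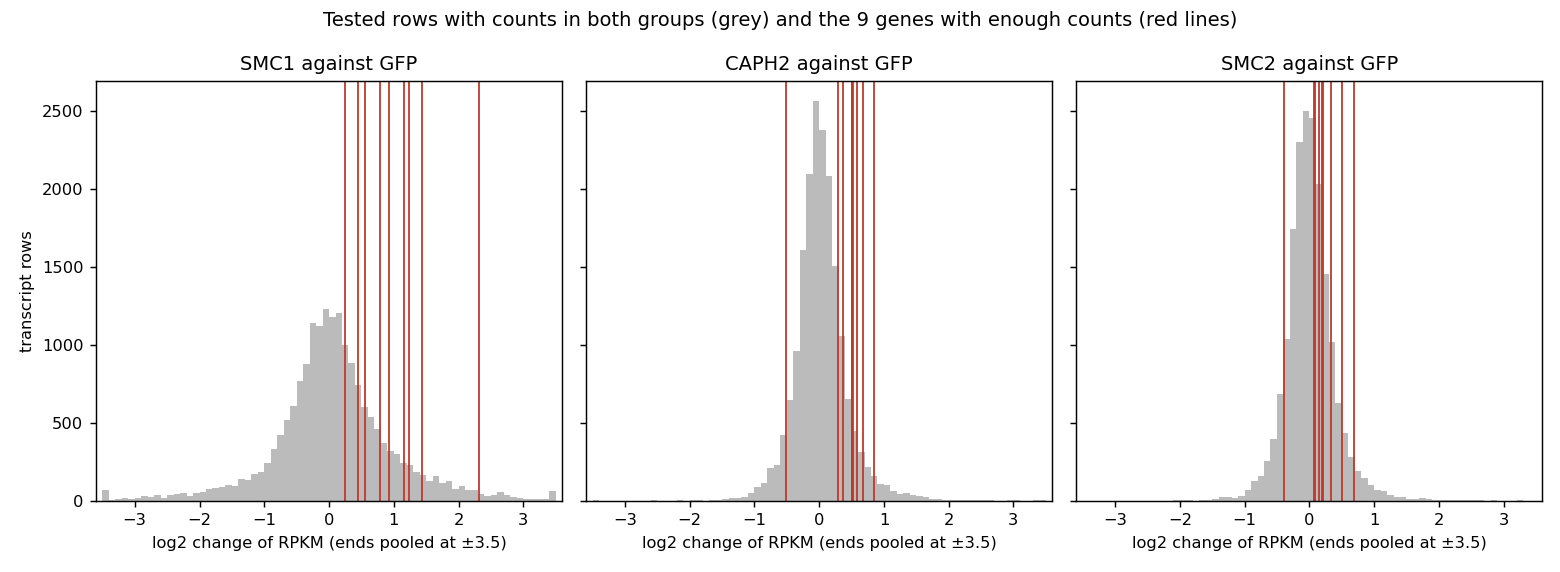
Histogram of the log2 change of RPKM against GFP for tested rows with counts in both groups (grey), for SMC1, the CAPH2 average and the SMC2 average, with the 9 genes as red lines. The 9 lines lie above 0 for SMC1, with a median of 0.92, and closer to the centre for CAPH2 and SMC2.

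Scaling to the ERCC RNAs, which were added by cell number, moved the whole table. The ERCC rows held 499195 counts in the GFP library and 244880 with SMC1, the lowest of the 6. This scaling raised the log2 change of all rows by a median of 0.87 with SMC1, 0.34 with the CAPH2 average and 0.60 with the SMC2 average. With it all 9 genes were at least 2-fold higher with SMC1, from 1.11 for Thy1 to 3.17 for Col5a2 on the log2 scale. The median log2 change of all rows was then 0.90, itself near 2-fold. The share of all rows past 2-fold with this scaling was not counted, so the 9 of 9 has no background beside it. For SMC1 the shift is the same for every gene, so the order of the genes is that of the RPKM scale. With ERCC scaling the edgeR fit passed 4 of 9 genes with SMC1, against 12.7% of rows, 0 of 9 with CAPH2, against 0.0271%, and 0 of 9 with SMC2, against 0% of rows. The log2 change of Thy1 turned from -0.38 to 0.22 for the SMC2 average and stayed below 0 for the CAPH2 average, at -0.14. Of the list calls given below with SMC1, the genes called higher all stayed above 0 with this scaling. Those called lower that turned to above 0 are counted beside each list. The list calls come from the fit without ERCC scaling, and are to be read against its shares of all rows. With SMC1 25.3% of all rows passed as higher and 23.2% as lower. The shares were 4.89% and 3.22% with CAPH2, and 4.57% and 2.58% with SMC2.

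Other collagen chains were taken as a list of 33 genes, of which 32 were found (all but Col6a3) and 26 were tested. With SMC1 14 of them rose and 2 fell in the edgeR fit, and 15 were at least 2-fold higher and 1 at least 2-fold lower, with a median log2 change of 1.26. The largest changes with at least 50 counts on average were Col27a1, a fibrillar collagen of cartilage, from 0.420 to 2.49 RPKM, Col8a1, a network-forming chain, from 1.02 to 5.04, and Col12a1, which binds the surface of fibrils, from 1.20 to 5.81. The edgeR fit called 1 chain higher with CAPH2, Col12a1 (adjusted p = 0.0336), and 0 with SMC2. Of the 2 that fell, 0 turned to above 0 with ERCC scaling. The list summed to an RPKM of 130.5 in GFP and 190.3 with SMC1, of which Col18a1, a basement membrane chain named after its values were seen, was 80.3 and 83.3. The 10 genes described here summed to 59.7 and 136.9.

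Genes that make and crosslink collagen were a list of 29, of which 28 were found and tested. With SMC1 14 rose and 6 fell in the edgeR fit (4 of the 6 were above 0 with ERCC scaling), and the median log2 change was 0.58. The largest was that of Lox, the enzyme that starts the crosslinks of collagen, which had an RPKM of 8.84 in GFP, 57.8 with SMC1, 28.2 and 14.2 with CAPH2 #1 and #2, and 23.2 and 16.5 with SMC2 #1 and #2. Its order of libraries is that of Col5a2. Bmp1, which removes the C-terminal propeptide of procollagen, rose from 4.96 to 16.0, and Adamts14, an enzyme that removes the N-terminal propeptide, fell from 5.05 to 1.25. With CAPH2 0 rose and 4 fell, and with SMC2 0 rose and 2 fell.

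Small leucine-rich proteoglycans and matrix glycoproteins were a list of 15, of which 9 were tested. With SMC1 7 rose and 1 fell (above 0 with ERCC scaling), with a median log2 change of 1.92, and 3 rose with CAPH2 and 3 with SMC2. Fbn1, the main protein of microfibrils, had an RPKM of 1.59 in GFP, 7.27 with SMC1, 3.23 and 2.42 with the CAPH2 hairpins and 2.87 and 2.88 with the SMC2 hairpins, and it passed in all 3 comparisons (adjusted p = 3.06e-05, 0.0265 and 0.0226). Thbs2, a matricellular glycoprotein, went from 0.738 to 3.00 with SMC1, and Bgn, which encodes biglycan, went from 17.1 to 66.3. Lum itself was near 0 while Bgn of the same family was higher than Col1a2 in the GFP library.

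Other markers of fibroblasts and mesenchyme were higher with SMC1. With the CAPH2 and SMC2 hairpins some single markers were higher, while the sum of the list was close to that of GFP. Of 27 markers, 18 were tested and 9 reached 1 RPKM in the GFP library, and 4 also stand in another list used here. In the edgeR fit with SMC1 13 rose and 0 fell, with a median log2 change of 0.94, and 2 rose and 1 fell with CAPH2, and 3 rose and 0 fell with SMC2. At least 2-fold higher were 8 of the 18 with SMC1, 4 with CAPH2 and 6 with SMC2, and 0 were 2-fold lower. Of all rows 12.5%, 2.37% and 1.73% were 2-fold higher in these comparisons. Ogn and Ccl2 are among the markers 2-fold higher in all 3 comparisons, with 3 and 4 counts in GFP. The summed RPKM of the list was 72.6 in GFP, 124.5 with SMC1, 75.1 and 74.9 with CAPH2, and 73.8 and 69.4 with SMC2. Cdh11, a cadherin of mesenchymal cells, rose from 0.749 to 4.70 with SMC1, Fbln5, an elastic fibre protein, from 0.343 to 1.66, and Tbx15, a transcription factor of limb and skin mesenchyme, from 0.599 to 2.19. The 9 markers that reached 1 RPKM in GFP, given here after their values were seen, make up most of the sum. Of these, Sfrp2 went from 12.9 to 23.3 RPKM with SMC1, Mmp2 from 11.8 to 21.9, Twist1 from 5.33 to 18.5, Loxl1 from 3.48 to 6.19, Pdgfrb from 1.76 to 3.08 and Mfap5 from 1.32 to 2.62, and all 6 passed. Fbln1 was at 17.6 and 14.6, Serpinf1 at 6.87 and 7.31 and Prrx2 at 6.35 and 8.95, and these 3 did not pass. At the other end of the list Dpt had 0 counts in every library, Fap had 0 to 2, and Dcn had 1 in GFP, 19 with SMC1 and 5 to 7 elsewhere. The part of RNA from residual fibroblasts in the levels of the collagen genes was not tested.

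Markers of 4 further cell types were read in the same way. Of 9 ESC markers 8 fell and 0 rose with SMC1 (1 of the 8 was above 0 with ERCC scaling, and the median log2 change went from -1.35 to -0.49), and their summed RPKM was 3817 in GFP, 2083 with SMC1, 3169 and 3320 with CAPH2 and 3367 and 3358 with SMC2. Esrrb fell from 209.6 to 21.5, Klf4 from 78.5 to 9.23 and Zfp42 from 205.3 to 51.6, each a pluripotency gene. Of 13 markers of primitive and parietal endoderm, which also make collagen, 7 rose and 2 fell with SMC1. With ERCC scaling 1 of these 2 was above 0. Col4a1 went from 12.2 to 34.9, Col4a2 from 8.27 to 19.95 and Dab2 from 2.03 to 5.52. The 2 that fell, named after their values were seen, were Lama1, from 13.13 to 6.47, and Lamc1, from 81.75 to 48.96. Of 7 early mesoderm markers 1 rose and 3 fell (1 of the 3 was above 0 with ERCC scaling). T, the brachyury gene, went from 6.93 to 16.4, Eomes from 5.03 to 3.43 and Hand1 from 1.74 to 1.04. Of these, Hand1 did not pass (adjusted p = 0.125). Mesp1, from 2.85 to 0.145 (66 and 3 counts), and Tbx6, from 1.03 to 0.303, also fell and were named after their values were seen. Of 6 smooth muscle and myofibroblast markers 5 rose and 1 fell, and their summed RPKM went from 214.3 to 788.8. Tagln, an actin-binding protein, went from 92.0 to 433.6, Cnn1, a calponin, from 10.2 to 42.4 and Myl9, a myosin light chain, from 21.97 to 87.6. The 1 that fell, also named after its values were seen, was Des, from 8.82 to 3.70. With CAPH2 the 4 lists gave 1 ESC marker lower, 1 endoderm marker and 1 mesoderm marker higher and 0 smooth muscle markers. With SMC2 they gave 0 in either direction. Of all rows 8.11% were called in either direction with CAPH2 and 7.15% with SMC2, so calls as few as these are not particular to the lists. The part of a change in cell types in the collagen levels was not tested.

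**Figure D5:**
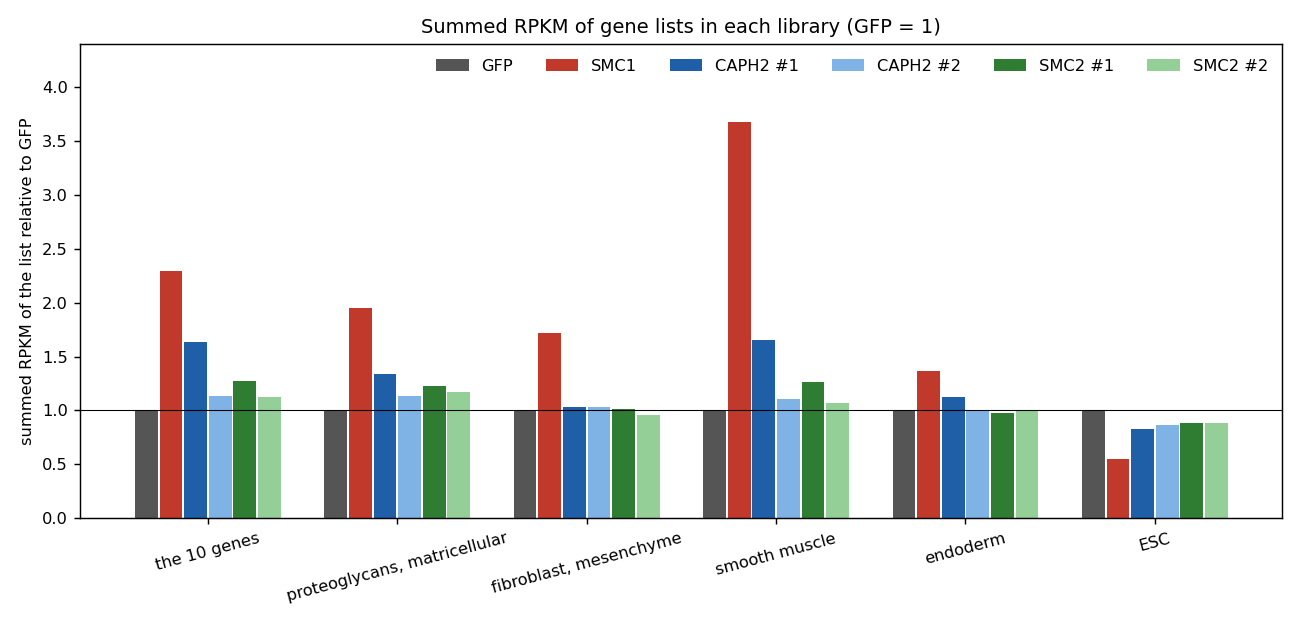
Summed RPKM of the 10 genes and of 5 other lists in the 6 libraries, each divided by its sum in the GFP library (linear axis from 0, GFP = 1, 1 bar per library). With SMC1 the 10 genes summed to 136.9 against 59.7 in GFP and the fibroblast list to 124.5 against 72.6, while the ESC list summed to 2083 against 3817.

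The genes whose pattern over the 6 libraries was most like that of Col1a1 were Lif, Phlda3, Cdkn2b, Dmrtb1 and Rhod. They were ranked among 12278 genes by the distance between centred log2 RPKM values, at 0.129, 0.154, 0.199, 0.213 and 0.220. Lif, which encodes the cytokine that keeps mouse ESCs undifferentiated, had an RPKM of 2.41 in GFP, 4.09 with SMC1, 3.79 and 2.51 with the CAPH2 hairpins and 2.80 and 2.47 with the SMC2 hairpins. None of these 5 is a collagen. On this ranking Col5a1 was 52nd, Col3a1 60th, Postn 113th and Col1a2 121st, whereas Col6a2 was 3132nd, Thy1 4726th and Col5a2 8242nd. The distance counts the size of the changes as well as their direction, so a gene with larger changes than Col1a1 ranks low. For both Col5a2 and Col1a1 the order of libraries began with SMC1, CAPH2 #1 and SMC2 #1 and ended with GFP. The points share the same 6 libraries, and the ranking is a description.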

How the data were processed

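RNA was sequenced from 6 libraries of V6.5 murine ESCs. Alignment by the authors was to mm9 with Bowtie, and they dropped reads that align to more than 2 places, and deposited a raw count of exonic reads and an RPKM value for each RefSeq transcript. A read in a shared exon counts for each isoform, the library kit does not mark strand, and the RPKM values deposited by the authors take account of the reads of each library and not of the ERCC RNAs. Each table holds 26073 RefSeq rows and 92 ERCC rows. The RefSeq accession named 25353 rows, a GENCODE gene at the same position (same build) named 698, and 22 rows have no name. Positions are mm9. The sample labels number the CAPH2 hairpins differently, and #1 is the library labelled R1.

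The genes and lists were chosen with earlier results of these data known. Named genes were the 10 members, at most 3 genes of each other list with the largest change with SMC1 among those averaging at least 50 counts, fibroblast markers with 0 to 2 counts in every library, and the 5 genes most like Col1a1. Kera, Dcn and the lists' sums were added after the values were seen. Log2 changes were taken from RPKM with no pseudocount. Rows that reached 10 counts in 2 or more libraries were tested (18463 of them, or 18245 in the fit of CAPH2 and SMC2) with edgeR 4.0.16 in R 4.3.3 (TMM, quasi-likelihood, Benjamini-Hochberg, threshold 0.05), and the step was tested on simulated data. Intervals for ratios of counts are exact binomial (scipy 1.17.1, Python 3.11.15). The smallest groups have 1 library, and no source says that hairpin libraries came from separate cultures on separate days, so p-values measure the spread between these libraries only. Alternatives were DESeq2 1.42.0, ERCC scaling, no filter, a pseudocount of 1, 1 row per gene, a replicate block and leaving out each hairpin.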

Additional observations from a re-analysis of the deposited data

Results flagged for a closer look

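Thy1 was above GFP in the SMC1 library and below it with the condensin hairpins on the RPKM scale. Its log2 change against GFP was 0.25 in the SMC1 library, while it was -0.37 and -0.67 with the CAPH2 hairpins and -0.28 and -0.50 with the SMC2 hairpins. This was picked out because all libraries of one target lay above the control and all libraries of another lay below it. The difference between the targets was not tested, SMC1 has a single library, and all 5 values are taken against the same GFP library. In the edgeR fit of all 6 libraries Thy1 passed in none of the 3 comparisons with GFP (adjusted p = 0.351 for SMC1, 0.0986 for CAPH2 and 0.210 for SMC2). With ERCC scaling the log2 change was 1.11 with SMC1, 0.26 and -0.72 with CAPH2 #1 and #2, and 0.36 and 0.066 with SMC2 #1 and #2, so that only CAPH2 #2 of these 5 libraries lay below GFP. The opposite directions of SMC1 and both condensin targets therefore depend on the scaling.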

How the results depend on the processing

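ERCC scaling moved the most values. The genes at least 2-fold from GFP went from 4 to 9 with SMC1, from 0 to 2 with the CAPH2 average and from 0 to 2 with the SMC2 average. All rows moved as well, to median log2 changes of 0.90, 0.34 and 0.60, and their share past 2-fold was not counted. The rows called by edgeR went from 8952 to 2341, from 1498 to 5 and from 1321 to 0 (910 at an unadjusted p under 0.05). DESeq2 called 950 rows for CAPH2 and 5 for SMC2 against CAPH2 (edgeR called 1). With no filter on low counts edgeR called 2584 rows for CAPH2, 2279 for SMC2 and 8 for SMC2 against CAPH2, and all 6 libraries in 1 fit gave 3 for the last. Leaving out a hairpin gave 0 to 1 genes at least 2-fold from GFP for CAPH2 (Col5a2 without CAPH2 #2) and 0 for SMC2. It gave 8555 to 10207 called rows for SMC1, 1406 to 4343 for CAPH2, 360 to 3849 for SMC2 and 1 to 404 for SMC2 against CAPH2, the highest without CAPH2 #2 except for SMC2, where it was without CAPH2 #1. Where 1 library of a target was left, it was assumed to vary like the other pair, so the spread came from that pair alone. As a common coefficient of variation this spread was 0.057 without either CAPH2 hairpin and 0.077 without either SMC2 hairpin. It was 0.067 with all 6 libraries. The part of this spread in these moves was not tested.

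Every edgeR call with SMC1 (Col1a1, Col1a2, Col3a1, Col5a1, Col5a2 and Col6a1) was kept in the 4 fits that leave out a hairpin. Reversed values were all short of the threshold. For SMC2 against CAPH2 the log2 difference over the 4 fits ranged from -0.58 to 0.078 for Col1a1, from -0.38 to 0.069 for Col1a2, from -0.50 to 0.33 for Col5a2 and from -0.76 to 0.055 for Postn, each with its lowest value without CAPH2 #2 and its highest without CAPH2 #1. It was 0.044 for Col5a2 without SMC2 #2, and it ranged from -0.34 to 0.053 for Col6a2 (highest without SMC2 #1) and from -0.0043 (without CAPH2 #2) to 0.29 for Thy1. For SMC2 against GFP it ranged from -0.046 to 0.17 for Col3a1 and from -0.19 to 0.31 for Postn, lowest without SMC2 #1, and ranged from -0.065 to 0.33 for Col6a2, lowest without SMC2 #2. Thy1 turned to 0.22 with ERCC scaling. Same-numbered hairpins of CAPH2 and SMC2 correlated at 0.0433 in their deviations, so the numbers were not taken to pair the libraries, and the replicate block called 15 rows. Of the values for single genes under these alternatives, 359 were within their spread or kept their call, 30 moved past their spread, 11 reversed, 7 lost a call and 19 gained one. The calls gained against GFP are Col5a2, Col1a1, Col3a1, Postn and Thy1 for CAPH2 and Col1a2, Col5a1 and Col5a2 for SMC2, all without a CAPH2 hairpin or with no filter, and the 4 others are those of SMC2 against CAPH2 without CAPH2 #2.

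Depth limits the genes with few counts. Col6a1, Col6a2 and Postn had 50 to 131 counts per library and Lum 0 to 5, and a single GFP library and a single SMC1 library leave those levels without an error of their own.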
